A study of Mus musculus with 4 samples.

Results

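A set of 10 genes of the bone morphogenetic protein (BMP) pathway was followed through the states of vascular smooth muscle cells (VSMCs) in single-cell RNA-seq data. They were the ligands *Bmp2*, *Bmp4*, *Bmp6* and *Gdf10*, the receptors *Bmpr1a*, *Bmpr1b* and *Bmpr2*, and the target genes *Id1*, *Id2* and *Id3*, chosen by name. The set was 10 of the 31765 genes listed for plaques, and 10 of the 26391 and 27696 genes listed for the control and *Trf2T188A* ligated arteries. The study asked whether premature senescence of VSMCs alters their phenotype, using mice in which VSMCs express *Trf2T188A*, a mutant of the telomere protein TRF2. In all, 4 libraries were analysed, 1 for each genotype in each of 2 experiments.

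The first experiment used plaques micro-dissected from the aortic root and arch and the carotid arteries of *Myh11-CreERt2/Confetti/ApoE-/-* mice, named *ApoE-/-* here, and of mice that also carried *Sm22a-Trf2T188A*, named *Trf2T188A/ApoE-/-*. Both genotypes lacked *ApoE*, received tamoxifen at 6 weeks of age and were fed a high fat diet for 14 weeks. Tamoxifen switches on Confetti, a fluorescent reporter, in *Myh11*-expressing cells, so that VSMCs and their progeny stay marked. The second experiment used carotid arteries 28 days after ligation, from *SM22a-TRF2T188A* mice and wild type littermates operated on at 4 to 5 months of age. These cells were not lineage-traced and the adventitia had been removed. All mice were on the C57Bl/6 background by the labels, given as C57Bl6/J in the methods. In both experiments the transgene was driven by a minimal *Sm22a* promoter, which is active in VSMCs and can also be used by other cells that take on a smooth muscle-like state. The number of mice behind a library is not given in the sources used here. With 1 library per genotype, no difference between genotypes rests on replicates, no test across samples was possible, and values are given with 95% intervals that cover counting error only.

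The libraries held 1502 *ApoE-/-* and 929 *Trf2T188A/ApoE-/-* plaque cells, with medians of 22765.5 and 24377 RNA molecules per cell counted by unique molecular identifier (UMI). Ligated arteries gave 4967 control and 5392 *Trf2T188A* cells with medians of 8631 and 11153 UMIs. The 2 ligation libraries shared 10 cell barcodes and the plaque libraries shared 0. *Terf2*, the gene of TRF2, stood at 0.183 UMIs per 10000 in both plaque libraries and at 0.179 and 0.168 in control and *Trf2T188A* ligated arteries, and whether RNA of the transgene is counted as *Terf2* is not given in the sources used here. The level of a gene is its UMIs per 10000 UMIs of the cells concerned.

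BMPs are secreted dimers that bring together type I receptors, such as BMPR1A and BMPR1B, and type II receptors, such as BMPR2. The active receptor phosphorylates SMAD1, SMAD5 and SMAD9, which enter the nucleus with SMAD4 and switch on target genes, among them the *Id* genes. ID proteins bind basic helix-loop-helix transcription factors and keep them from DNA. BMPR2 is known for its loss of function in heritable pulmonary arterial hypertension, and BMP2 and BMP4 are known as drivers of bone and cartilage formation and of vascular calcification.

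*Gdf10* and *Bmp4* were the ligand genes with the highest folds over contractile or reference cells in de-differentiated VSMCs, so the bases before their start sites are shown. RefSeq promoter sequence was matched for 8 of the 10 genes, and the 250 bases before the start were free of annotated exons in GRCm38.p6 for both ligands. The *Bmp4* stretch is chr14:46390670-46390919 on the minus strand and the *Gdf10* stretch is chr14:33923337-33923586 on the plus strand, each written 5′ to 3′ with E-boxes (CANNTG, the letters that basic helix-loop-helix factors recognise) in capitals.
Bmp4 promoter: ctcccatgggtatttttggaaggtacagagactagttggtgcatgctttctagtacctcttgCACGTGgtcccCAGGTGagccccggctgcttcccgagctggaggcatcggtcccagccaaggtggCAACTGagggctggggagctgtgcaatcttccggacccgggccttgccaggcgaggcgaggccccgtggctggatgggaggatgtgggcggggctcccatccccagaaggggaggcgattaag
Gdf10 promoter: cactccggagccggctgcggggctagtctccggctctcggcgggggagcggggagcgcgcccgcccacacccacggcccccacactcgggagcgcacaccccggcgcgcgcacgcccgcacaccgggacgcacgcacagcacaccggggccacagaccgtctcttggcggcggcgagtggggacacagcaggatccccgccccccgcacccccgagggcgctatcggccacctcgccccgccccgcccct
The *Bmp4* stretch held 3 E-boxes and the *Gdf10* stretch 0, and an E-box was found in 66.2% of 32851 stretches of this length. Neither stretch held the SMAD letters GGCGCC, found in 9.59% of the stretches, or GTCTAGAC, found in 0.167%. The 3 motifs read the same on both strands and did not overlap each other, and a match is a description of letters, not a site. The GC content was 63.2% before *Bmp4* and 78.8% before *Gdf10*.

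Cells were clustered in each experiment without any gene of the BMP pathway, so that the levels below did not form the clusters. Plaque cells fell into 13 clusters. Contractile-like cells made up 3 of them, named here by a leading gene as *Csrp2*, *Sparcl1* and *Rgs5*, with 207, 218 and 152 *ApoE-/-* and 143, 74 and 53 *Trf2T188A/ApoE-/-* cells. Fibromyocyte-like cells, led by *Timp1*, *Spp1* and *Lum* and so bearing matrix genes in place of contractile ones, numbered 160 and 135. Chondrocyte-like cells, led by *Col2a1* and *Ibsp*, numbered 81 and 62, and acute-phase-like cells, led by *C3*, *Cp* and *Lcn2*, 111 and 78. Further clusters were called after the study's marker lists as *Itih4*-type-like, *Adamtsl1*-type-like and *Pln*-type-like, and a small fibroblast-like cluster held 21 *ApoE-/-* cells and 1 *Trf2T188A/ApoE-/-* cell. A cluster of 14 *ApoE-/-* cells led by *Igfbp3* and *Gpx3* stayed unnamed, since it scored highest on the fibroblast list but had none of that list's markers among its 10 leading genes. A cluster led by *Ifrd1* and *Dmd* also stayed unnamed and had the lowest median depth, 8440 UMIs per cell. In ligated arteries, 2032 control and 1835 *Trf2T188A* cells were remodelling-like, led by *Igfbp2* and *Eln*, and 1109 and 1046 were de-differentiated-like, led by *Lum* and *Dcn*. The largest cluster, of 1629 and 2326 cells, was led by *Sparcl1* and *Tcap*, reached no marker list by the naming limits and is called the reference cluster. Its *Acta2* level was 167.6 in control and 176.3 in *Trf2T188A* cells, and its *Myh11* level 34.1 and 32.8. On the contractile marker list the reference cluster averaged a log2 ratio of 0.334, with 1 of 8 markers at the naming limit. Remodelling-like cells averaged 0.415, with 5 of 8, and de-differentiated-like cells −1.321, with 0 of 8. Folds of remodelling-like over reference cells are therefore not read as modulated over contractile cells. Interferon-like, endothelial-like and immune-like cells numbered 116 and 63, 62 and 65, and 19 and 57.

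*Gdf10*, a BMP-like ligand of the transforming growth factor superfamily, ranged widely between plaque classes. In plaques its level was 5.55 in *ApoE-/-* and 5.35 in *Trf2T188A/ApoE-/-* chondrocyte-like cells, 3.89 and 3.94 in *Adamtsl1*-type-like cells, 1.76 and 2.07 in acute-phase-like cells and 1.09 and 1.67 in fibromyocyte-like cells. Contractile-like cells stood at 0.0747 and 0.0966. The order chondrocyte-like, *Adamtsl1*-type-like, acute-phase-like, fibromyocyte-like was the same in both libraries, and counting intervals of neighbours in it did not overlap. The unnamed *Igfbp3* *Gpx3* cluster, of 14 *ApoE-/-* cells, had a level of 6.76 (95% interval, 5.80 to 7.84), which overlapped the interval of chondrocyte-like *ApoE-/-* cells (5.30 to 5.81). Chondrocyte-like cells were 5.39% and 6.67% of the plaque cells and held 48.5% and 40.9% of the *Gdf10* UMIs.

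After ligation the de-differentiated-like cells carried *Gdf10* at 6.20 in control and 6.90 in *Trf2T188A* cells, against 0.668 and 0.583 in the reference cluster and 0.587 and 0.757 in remodelling-like cells. Their fold over the reference cluster was 9.27 (8.68 to 9.91) in control and 11.8 (11.2 to 12.5) in *Trf2T188A* cells. They were 22.3% and 19.4% of the cells and held 73.9% and 71.4% of the *Gdf10* UMIs. With each cell thinned to 5000 UMIs, 77.2% of control and 80.5% of *Trf2T188A* de-differentiated-like cells had a *Gdf10* UMI, against 18% and 18.3% of reference cells. Endothelial-like cells stood at 0.0125 from 1 UMI in the control library and 0.0647 from 7 UMIs in the *Trf2T188A* library, and the part of free RNA in these levels was not tested.

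**Figure D1:**
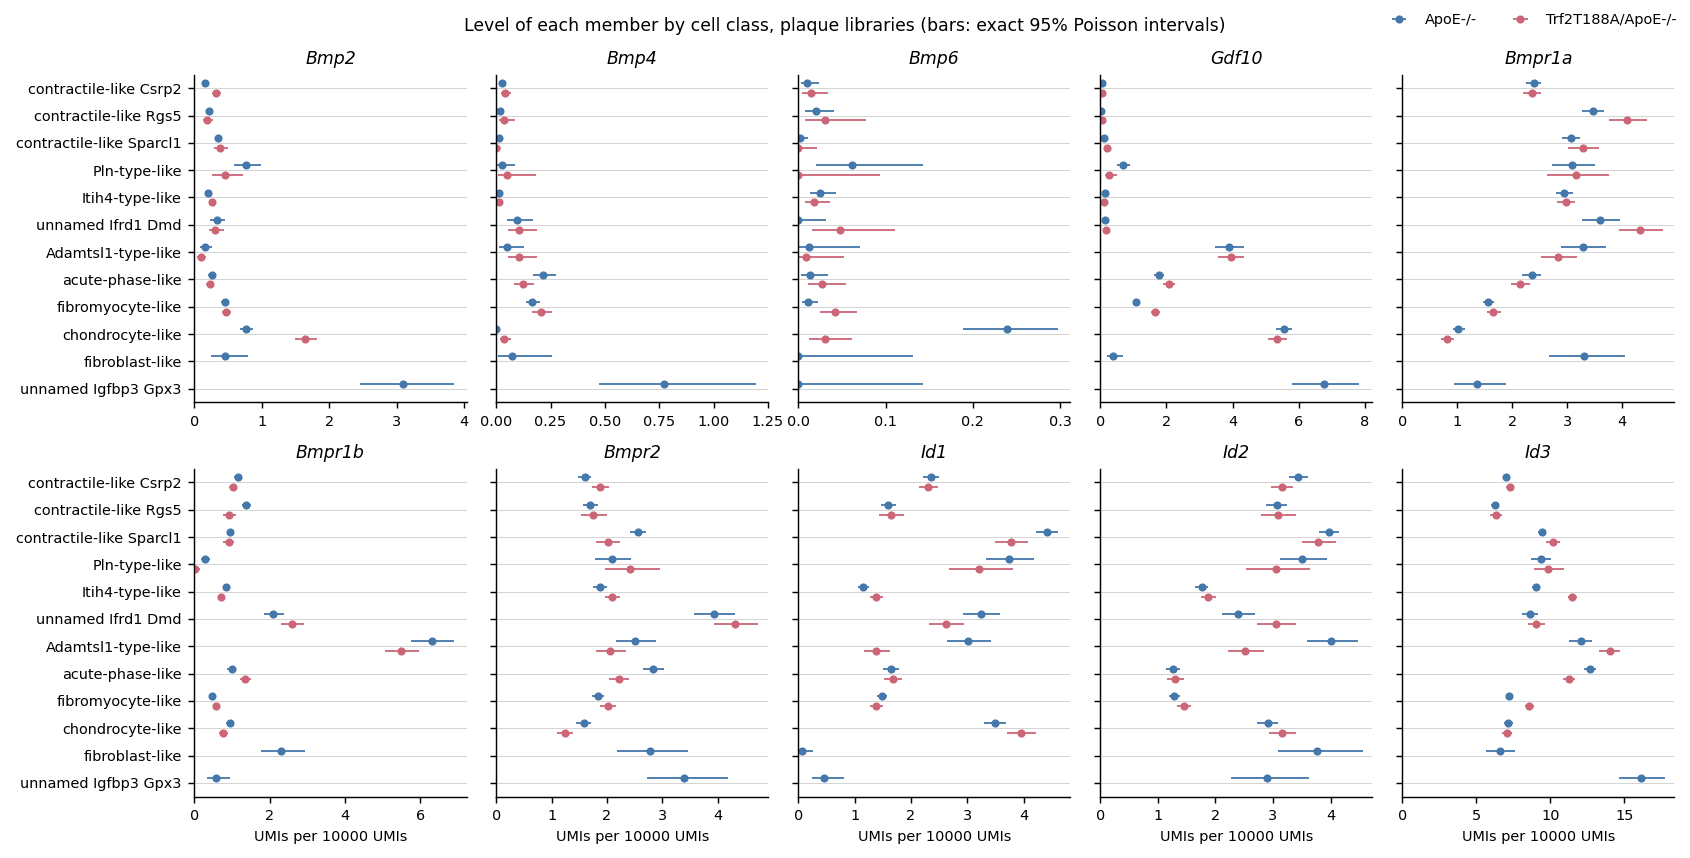
Levels of the 10 BMP pathway genes in plaque cell classes, in UMIs per 10000 on axes that differ between panels, with 1 point for the *ApoE-/-* and 1 for the *Trf2T188A/ApoE-/-* library in each class and exact Poisson 95% intervals; classes with under 10 cells in a library are left out. Among classes drawn for both libraries, *Gdf10* was highest in chondrocyte-like cells at 5.55 and 5.35, and *Bmpr1b* in *Adamtsl1*-type-like cells at 6.31 and 5.50. Among the same classes *Id1* was highest in the contractile-like *Sparcl1* cluster at 4.41 in *ApoE-/-*, and in chondrocyte-like cells at 3.96 in *Trf2T188A/ApoE-/-*.

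*Bmp2*, a ligand that induces bone formation, had a level of 0.764 from 256 UMIs in *ApoE-/-* and 1.65 from 383 UMIs in *Trf2T188A/ApoE-/-* chondrocyte-like plaque cells. *Pln*-type-like cells stood at 0.770 from 63 UMIs and 0.454 from 18 UMIs. Fibromyocyte-like cells stood at 0.453 and 0.474 and contractile-like cells at 0.247 and 0.313. The 14 cells of the *Igfbp3* *Gpx3* cluster had a *Bmp2* level of 3.09 (2.45 to 3.85). In ligated arteries the *Bmp2* level was 1.39 in control and 1.502 in *Trf2T188A* de-differentiated-like cells, 0.754 and 0.745 in reference cells and 0.575 and 0.607 in remodelling-like cells. De-differentiated-like cells were thus 1.85 times (1.71 to 2.0) and 2.02 times (1.90 to 2.14) the reference level.

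*Bmp4*, a ligand known from endothelial cells exposed to disturbed flow, had its highest level after ligation in endothelial-like cells. It was 9.23 there in control and 8.02 in *Trf2T188A* arteries. Endothelial-like cells held 54.3% and 45.3% of the *Bmp4* UMIs, de-differentiated-like cells 22.5% and 27.5%, and remodelling-like cells 16.7% and 17.9%. VSMC classes had far lower levels, and differed among themselves. De-differentiated-like cells stood at 0.287 from 306 UMIs and 0.402 from 527 UMIs, remodelling-like cells at 0.116 and 0.151, and reference cells at 0.0519 and 0.0553. The fold of de-differentiated-like over reference cells was 5.52 (4.31 to 7.16) in control and 7.26 (6.08 to 8.72) in *Trf2T188A* arteries. *Pecam1*, an endothelial adhesion gene, was set beside *Bmp4* in each class. *Bmp4* made up 38.5% and 38.0% of the UMIs of these 2 genes in endothelial-like cells, 72.5% and 76.7% in de-differentiated-like cells, 60.2% and 66.0% in remodelling-like cells, and 22.9% and 20.1% in reference cells. *Cdh5*, which encodes VE-cadherin, had 0 UMIs in control and 1 in *Trf2T188A* de-differentiated-like cells. Reference cells had 270 and 639 *Pecam1* UMIs with 2 and 1 of *Cdh5*. In plaques the *Bmp4* level was 0.217 and 0.122 in acute-phase-like, 0.165 and 0.208 in fibromyocyte-like and 0.0196 and 0.0296 in contractile-like cells. Chondrocyte-like cells had 0 *Bmp4* UMIs in *ApoE-/-*, which allows a level of up to 0.00895, and 8 UMIs in *Trf2T188A/ApoE-/-*, a level of 0.0344. Of endothelial markers in fibromyocyte-like cells, *Cdh5* had 4 UMIs in *ApoE-/-* and 34 in *Trf2T188A/ApoE-/-* cells, of which 73.5% lay in 1 cell. *Bmp4* was 29.9% and 30.3% of the UMIs of *Bmp4* and *Pecam1* in these cells, and 13.5% and 7.69% in acute-phase-like cells. The part of endothelial RNA in the *Bmp4* levels of other classes was not tested in either experiment.

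*Bmp6*, a ligand best known for controlling hepatic iron metabolism, was almost wholly endothelial in ligated arteries. Endothelial-like cells had a level of 4.21 (3.78 to 4.69) in control and 3.47 (3.13 to 3.84) in *Trf2T188A* arteries and held 97.1% and 94.5% of the *Bmp6* UMIs. De-differentiated-like, remodelling-like and reference cells stood at or under 0.0061. In plaques *Bmp6* was found mainly in chondrocyte-like *ApoE-/-* cells, at 0.239, and 53.8% of these 80 UMIs came from 1 cell.

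**Figure D2:**
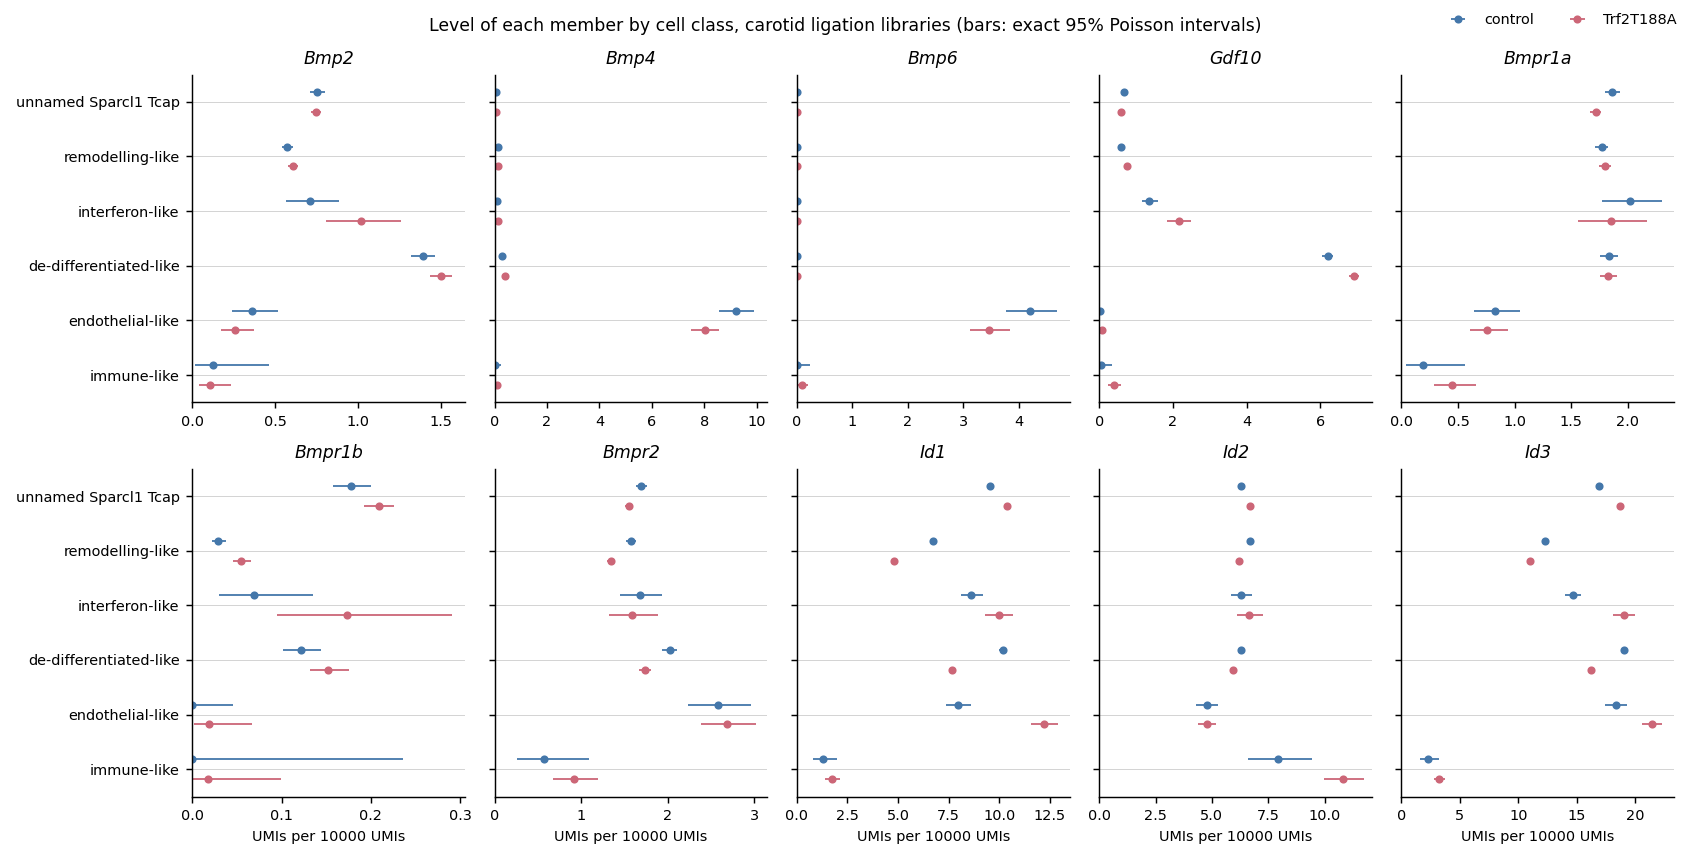
Levels of the 10 genes in cell classes of ligated carotid arteries, in UMIs per 10000 on axes that differ between panels, with 1 point for the control and 1 for the *Trf2T188A* library and exact Poisson 95% intervals. *Bmp4* and *Bmp6* were highest in endothelial-like cells, *Gdf10* in de-differentiated-like cells, and *Id1* and *Id3* were lowest in immune-like cells.

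*Bmpr1a*, the type I receptor found in most tissues, had a level of 2.92 in *ApoE-/-* and 2.96 in *Trf2T188A/ApoE-/-* contractile-like cells, 1.56 and 1.66 in fibromyocyte-like cells and 1.02 and 0.821 in chondrocyte-like cells. After ligation it differed little between VSMC classes, at 1.86 and 1.72 in reference, 1.77 and 1.80 in remodelling-like and 1.83 and 1.83 in de-differentiated-like cells. Endothelial-like cells had 0.823 and 0.758.

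*Bmpr1b*, a type I receptor best known from cartilage and the ovary, had a higher level in *Adamtsl1*-type-like plaque cells than in contractile-like ones. It was 6.31 from 498 UMIs in *ApoE-/-* and 5.50 from 585 UMIs in *Trf2T188A/ApoE-/-* cells, 5.55 times (5.01 to 6.15) and 5.64 times (5.03 to 6.32) the contractile-like level of 1.14 and 0.975. *Adamtsl1*-type-like cells were 2.60% and 3.88% of the plaque cells and held 11.6% and 20.5% of the *Bmpr1b* UMIs. With plaque cells thinned to 8000 UMIs, 93.9% and 97.2% of *Adamtsl1*-type-like cells had a *Bmpr1b* UMI, against 46.5% and 40.5% of contractile-like cells. Fibromyocyte-like cells stood at 0.460 and 0.578. In ligated arteries the *Bmpr1b* level was 0.178 and 0.209 in reference cells and 0.0292 and 0.0549 in remodelling-like cells.

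*Bmpr2*, the type II receptor, had a plaque level of 1.98 and 1.89 in contractile-like, 1.84 and 2.02 in fibromyocyte-like and 1.58 and 1.23 in chondrocyte-like cells, and it was highest in the shallow *Ifrd1* *Dmd* cluster, at 3.94 and 4.32. Ligated endothelial-like cells had 2.58 and 2.69, against 1.69 and 1.56 in the reference cluster.

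Of the targets, *Id1* and *Id2* were lower in fibromyocyte-like and acute-phase-like than in contractile-like plaque cells, and *Id3* was not. *Id1* had a level of 4.41 in *ApoE-/-* and 3.77 in *Trf2T188A/ApoE-/-* cells of the contractile-like *Sparcl1* cluster, 2.35 and 2.31 in the *Csrp2* cluster and 1.60 and 1.65 in the *Rgs5* cluster. The *Sparcl1* cluster also had immediate-early genes, which cell isolation can induce, such as *Atf3*, *Btg2* and *Gadd45b*, among its 10 leading genes, and their part in its *Id1* level was not tested. *Id1* stood at 1.48 and 1.38 in fibromyocyte-like, 1.64 and 1.67 in acute-phase-like and 1.15 and 1.38 in *Itih4*-type-like cells, but at 3.49 and 3.96 in chondrocyte-like cells. The *Rgs5* cluster was therefore nearer in *Id1* to fibromyocyte-like and acute-phase-like cells than to the *Sparcl1* cluster, and did not lie above acute-phase-like cells. *Id2* had a level of 3.54 and 3.30 in contractile-like, 1.29 and 1.45 in fibromyocyte-like and 1.26 and 1.30 in acute-phase-like cells. *Id3* stood at 7.71 and 7.83 in contractile-like and at 7.24 and 8.58 in fibromyocyte-like cells, and was higher in acute-phase-like cells, at 12.7 and 11.2, and *Adamtsl1*-type-like cells, at 12.04 and 14.

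In ligated arteries *Id1* was lower in remodelling-like than in reference cells of both libraries, while de-differentiated-like cells lay above reference cells in the control library and below them in the *Trf2T188A* library. *Id1* had a level of 9.55 in control and 10.4 in *Trf2T188A* reference cells, 6.73 and 4.82 in remodelling-like cells and 10.2 and 7.69 in de-differentiated-like cells. *Id2* ran from 5.92 to 6.68 over these 3 classes and both libraries. *Id3* stood at 16.9 and 18.7 in reference, 12.3 and 10.97 in remodelling-like and 19.0 and 16.2 in de-differentiated-like cells. Immune-like cells, with 19 control and 57 *Trf2T188A* cells, had *Id1* at 1.28 and 1.74, *Id3* at 2.30 and 3.22 and *Id2* at 7.92 and 10.8.

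Set against contractile-like cells, 9 members had at least 50 UMIs in fibromyocyte-like plaque cells in both libraries, and a gene is counted below where it passed 1.5-fold in both. The shares of all genes set beside these class counts, in plaques and after ligation, are instead for 1 library at a time. The share of all genes past 1.5-fold the same way in both libraries was not computed. In fibromyocyte-like cells *Bmp2*, *Bmp4* and *Gdf10* were higher, at folds of 1.84 and 1.52, 8.41 and 7.01, and 14.6 and 17.3 in *ApoE-/-* and *Trf2T188A/ApoE-/-* cells. *Bmpr1a*, *Bmpr1b*, *Id1* and *Id2* were lower there, at 0.533 and 0.560, 0.405 and 0.593, 0.510 and 0.540, and 0.365 and 0.440. Of all genes counted, 21.1% were past 1.5-fold higher and 17.2% lower in *ApoE-/-* fibromyocyte-like cells, and 18.7% and 17.7% in *Trf2T188A/ApoE-/-* cells. *Bmp4* met the UMI minimum in fibromyocyte-like cells only through that class, with 103 and 84 UMIs against 26 and 19 in contractile-like cells. In acute-phase-like cells *Bmp4* and *Gdf10* were higher and *Id1* and *Id2* lower, where 19.1% of genes were higher and 14.7% lower in *ApoE-/-* and 18.3% and 15.5% in *Trf2T188A/ApoE-/-* cells. *Bmp4* had 66 and 32 UMIs in acute-phase-like cells, and the 32 met the minimum only together with the 19 contractile-like UMIs. Chondrocyte-like cells had *Bmp2* and *Gdf10* higher and *Bmpr1a* lower, where 16.4% and 39.9%, and 15.0% and 38.1%, of genes were higher and lower.

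The *Adamtsl1*-type-like class had *Bmpr1b*, *Gdf10* and *Id3* higher and *Bmp2* lower in both libraries, where 21.1% of genes were higher and 13.5% lower in *ApoE-/-* and 18.9% and 10.5% in *Trf2T188A/ApoE-/-* cells. Its *Bmp2* fold was 0.616 (0.315 to 1.09) from 12 UMIs and 0.300 (0.142 to 0.564) from 10 UMIs. In *Itih4*-type-like cells *Id1* and *Id2* were lower, where 8.44% and 8.27% of genes were higher and 4.81% and 5.08% lower. *Pln*-type-like cells had *Gdf10* higher and *Bmpr1b* lower, against 11.8% of genes higher and 12.8% lower in *ApoE-/-* and 15.5% and 17.2% in *Trf2T188A/ApoE-/-* cells, from 22 cells in the latter. *Bmpr1b* had 23 and 1 UMIs in *Pln*-type-like cells and met the UMI minimum only through contractile-like cells. *Gdf10* had 56 and 11 UMIs in *Pln*-type-like cells, and the 11 met the minimum only through contractile-like cells. In the *Ifrd1* *Dmd* cluster *Bmpr1b*, *Bmpr2* and *Gdf10* were higher, where 26.7% and 29.7% of genes were higher and 26.4% and 28.7% lower. *Gdf10* had 18 and 18 UMIs in this cluster and met the UMI minimum only through contractile-like cells.

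After ligation, de-differentiated-like cells had *Bmp2*, *Bmp4* and *Gdf10* higher than reference cells and 0 members lower, among 9 counted in both libraries. Of all genes 10.5% were higher and 9.73% lower in control and 12.4% and 10.3% in *Trf2T188A* cells. The same 3 ligands were the ones higher in fibromyocyte-like plaque cells. They were the only ligand members counted in either comparison, as *Bmp6* had too few UMIs, so no other ligand could have been among them. *Bmp4* was counted in plaques only through fibromyocyte-like cells. The match of the ligands, over classes of different arteries and injuries, was not tested. Remodelling-like cells had *Bmp4* higher, at 2.24 and 2.73, and *Bmpr1b* lower, at 0.165 and 0.263, where 4.79% and 7.19% of genes were higher and 8.15% and 9.71% lower. Interferon-like cells had *Gdf10* higher, at 2.03 and 3.70, where 7.32% and 9.65% of genes were higher and 13.1% and 16.7% lower. Endothelial-like cells had *Bmp4*, *Bmp6* and *Bmpr2* higher and *Bmp2*, *Bmpr1a*, *Bmpr1b* and *Gdf10* lower, where 25.7% and 23.3% of genes were higher and 27.4% and 30.0% lower. *Bmp2*, *Bmpr1b* and *Gdf10* met the UMI minimum only through reference cells, with 29 and 28, 0 and 2, and 1 and 7 UMIs in endothelial-like cells. *Bmp6* met it only through endothelial-like cells, with 6 and 5 UMIs in reference cells.

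The other genes of the pathway were followed as a list of 45. In fibromyocyte-like cells 31 were counted, of which *Acvr1*, *Bmp1*, *Bmper*, *Chrdl1*, *Eng*, *Fst*, *Fstl1*, *Nbl1*, *Rgma* and *Runx2* were past 1.5-fold higher and *Atoh8*, *Bambi*, *Bmp3*, *Id4* and *Sost* lower in both libraries. Of all genes in these cells, 21.1% and 18.7% were higher and 17.2% and 17.7% lower, for 1 library at a time. *Fst*, the gene of the antagonist follistatin, had a level of 0.764 and 0.650 there against 0.0588 and 0.0966 in contractile-like cells. *Sost*, the gene of sclerostin, a secreted antagonist better known for blocking WNT signals, stood at 0.466 and 0.692 against 8.81 and 10.8. *Runx2*, a transcription factor of bone formation, stood at 0.234 and 0.383 against 0.0151 and 0.00623. The contractile-like *Runx2* levels rest on few UMIs, and the gene met the UMI minimum only through fibromyocyte-like cells. *Bmp3*, another ligand gene, had 6 and 3 UMIs in fibromyocyte-like cells. *Smad7*, an inhibitor inside the cell that BMP signals induce, did not pass 1.5-fold, at 2.85 and 2.79 against 2.45 and 2.44. Acute-phase-like cells had 10 of 31 higher and 5 lower. The higher ones again included *Acvr1*, *Bmp1*, *Bmper*, *Chrdl1*, *Eng*, *Fst*, *Fstl1* and *Nbl1*, and the lower ones *Bambi*, *Bmp3*, *Id4* and *Sost*. In ligated de-differentiated-like cells the *Fst* level was 0.830 and 1.11 against 0.319 and 0.315 in reference cells.

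Between genotypes, most members were within 1.5-fold in each class. In plaques, 8 classes were compared, each with at least 50 cells in both libraries, and of 64 gene and class pairs with at least 50 UMIs, 4 were past 1.5-fold higher and 2 lower in *Trf2T188A/ApoE-/-* cells. Over all genes in the same classes, 3.41% of gene and class pairs were higher and 4.85% lower, so these few member pairs are not read as particular to the set. After ligation, 5 classes gave 42 such pairs, of which 3 were higher and 0 lower in *Trf2T188A* cells, against 3.47% higher and 3.59% lower over all genes. The contractile-like clusters were compared 1 by 1.

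*Gdf10* differed in fibromyocyte-like cells, with 683 UMIs in 160 *ApoE-/-* and 676 UMIs in 135 *Trf2T188A/ApoE-/-* cells, a fold of 1.53 (1.37 to 1.70). Without the cell richest in *Gdf10* in each library the fold was 1.46, under the limit. Of all genes in this class, 3.14% were past 1.5-fold higher and 6.16% lower. With cells thinned to 8000 UMIs, 27.1% (exact Clopper-Pearson 95% interval, 20.3 to 34.8%) of *ApoE-/-* and 35.3% (26.8 to 44.6%) of *Trf2T188A/ApoE-/-* fibromyocyte-like cells had a *Gdf10* UMI, intervals that overlapped. In the contractile-like *Sparcl1* cluster, where 2.57% of genes were past 1.5-fold higher and 4.67% lower, the *Gdf10* fold was 1.66 (1.06 to 2.56) from 61 and 35 UMIs, and thinning of the cells turned its direction, to a log2 fold of −0.17.

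*Bmp2* was higher in chondrocyte-like *Trf2T188A/ApoE-/-* cells, by 2.16-fold (1.84 to 2.54), and by 1.89-fold without the richest cells, which held 28 and 83 UMIs. *Bmp6* was lower there, with 80 UMIs in *ApoE-/-* and 7 in *Trf2T188A/ApoE-/-* cells, a fold of 0.126 (0.0491 to 0.272). It passed the minimum of 50 UMIs through the *ApoE-/-* library, and without the richest cells 37 and 3 UMIs remained, under that minimum. In this class 5.45% of genes were past 1.5-fold higher and 7.24% lower. *Bmp2* was also higher in the contractile-like *Csrp2* cluster, at 0.156 from 76 and 0.325 from 111 UMIs, a fold of 2.09 (1.54 to 2.83), where 1.57% of genes were higher and 3.14% lower. In the *Rgs5* cluster it stood at 0.225 and 0.189, and in the *Sparcl1* cluster at 0.353 and 0.387. *Bmp4* was lower in acute-phase-like *Trf2T188A/ApoE-/-* cells, from 66 to 32 UMIs, a fold of 0.564 (0.358 to 0.872), where 3.21% of genes were higher and 5.30% lower.

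No member passed 1.5-fold between genotypes in the *Itih4*-type-like, contractile-like *Rgs5* and *Ifrd1* *Dmd* clusters. Of all genes, 2.32%, 3.96% and 6.79% were past it higher in these 3 clusters and 3.72%, 3.62% and 5.19% lower. The *Id* genes stayed within 1.5-fold in all plaque classes compared. *Id3* was 1.27 times as high (1.22 to 1.32) in *Trf2T188A/ApoE-/-* *Itih4*-type-like cells, at 9.03 and 11.5, and *Id1* 1.20 times (1.07 to 1.34). In the same cells 7 of 16 digestion-induced genes, such as *Junb* and *Atf3*, were past 1.5-fold higher, with a median log2 fold of 0.54, against a median of −0.0048 for all genes, and their part in the *Id* values was not tested.

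**Figure D3:**
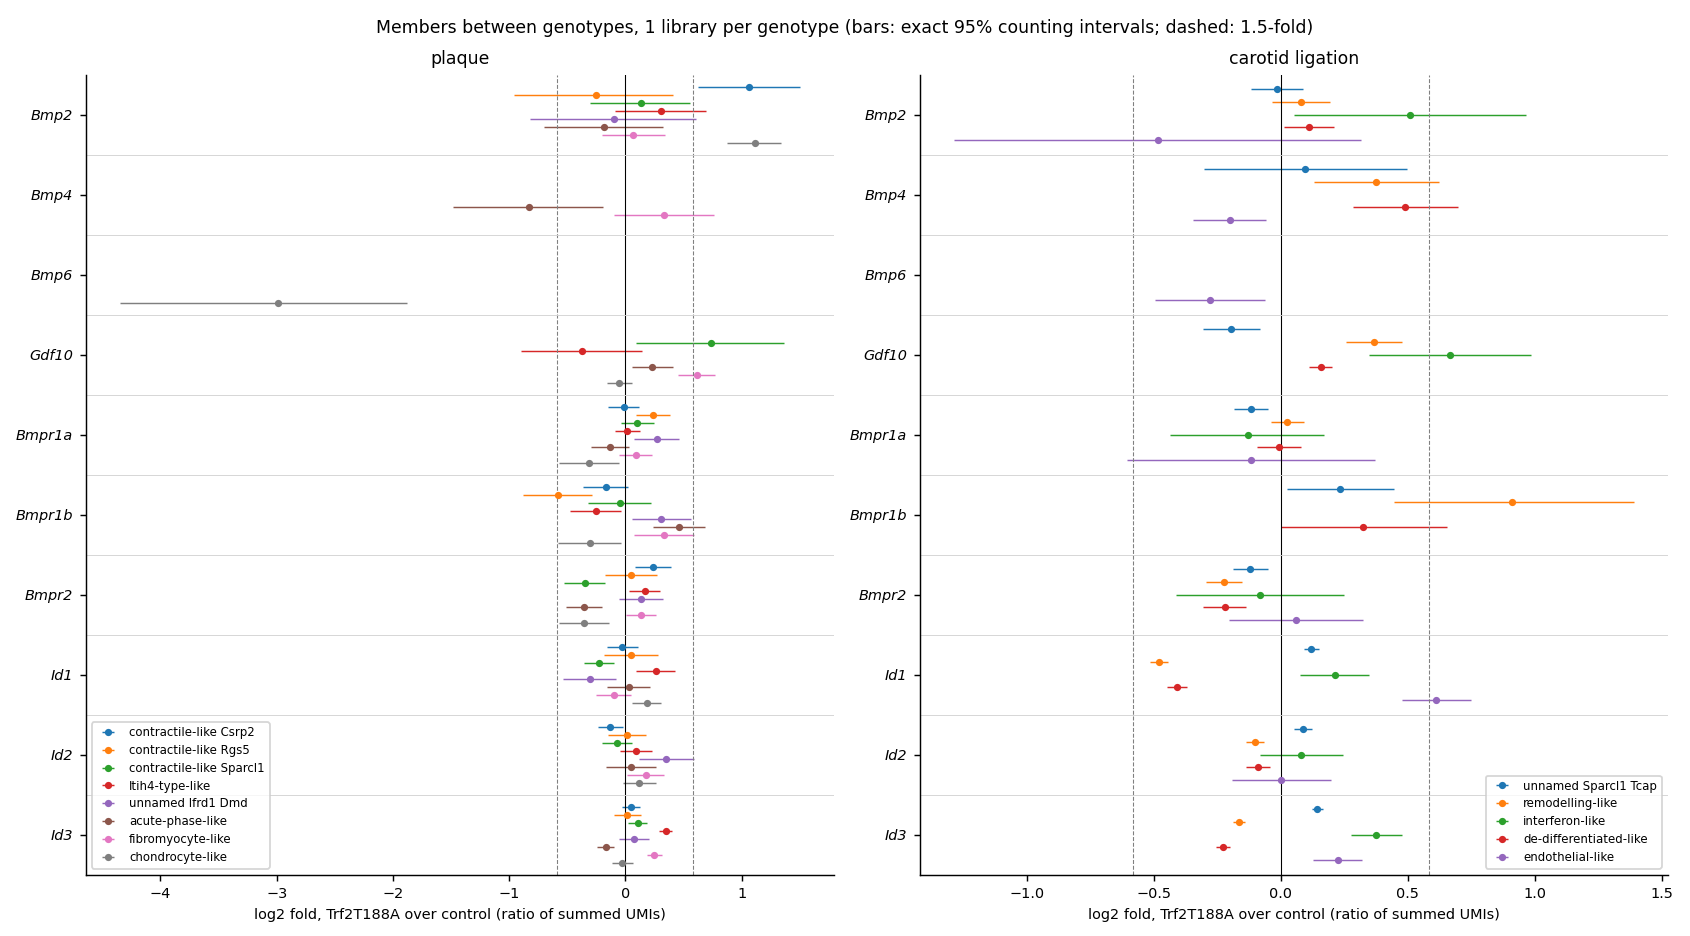
Log2 fold of each of the 10 genes between *Trf2T188A* and control genotype cells of the same class, with plaque and ligation in separate panels, 1 point per class with at least 50 cells in both libraries and 50 UMIs of the gene, exact 95% counting intervals and dashed lines at 1.5-fold. Most points lay between the lines, and *Bmp6* in chondrocyte-like plaque cells, at a fold of 0.126, lay farthest out.

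In ligated arteries *Id1* differed in opposite directions between classes. In endothelial-like cells its level was 7.99 (641 UMIs) in control and 12.2 (1322 UMIs) in *Trf2T188A* arteries, a fold of 1.53 (1.39 to 1.68), where 5.39% of genes were past 1.5-fold higher and 7.35% lower. Remodelling-like cells stood at 6.73 and 4.82, a fold of 0.716 (0.698 to 0.735), de-differentiated-like cells at a fold of 0.753 (0.733 to 0.774) and reference cells at 1.09 (1.07 to 1.11), all within 1.5-fold. *Id3* followed, at folds of 1.17, 0.892, 0.854 and 1.10 in these 4 classes. The digestion-induced genes had median log2 folds of 0.33, −0.13, −0.19 and −0.07 in the same order, with 5, 1, 0 and 1 of 16 past 1.5-fold higher and none lower, and their part in the *Id* values was not tested. No member was past 1.5-fold in de-differentiated-like cells, where 2.69% of genes were higher and 2.13% lower, or in reference cells, where 2.03% were higher and 2.76% lower.

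*Gdf10* was higher in interferon-like *Trf2T188A* cells of ligated arteries, with 158 and 174 UMIs and a fold of 1.59 (1.27 to 1.98), where 4.08% of genes were higher and 7.28% lower. It was 1.36 without the richest cell of each library, since 1 *Trf2T188A* cell held 41 of the UMIs. *Bmpr1b* was higher in remodelling-like *Trf2T188A* cells, from 57 to 125 UMIs, a fold of 1.88 (1.36 to 2.62), where 4.65% of genes were higher and 2.81% lower, though its level stayed under 0.055. The ligand differences in de-differentiated-like cells were smaller, with *Gdf10* at a fold of 1.11 (1.08 to 1.15) and *Bmp4* at 1.40 (1.22 to 1.62).

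Other pathway genes were past 1.5-fold between genotypes in some classes, and the shares over all genes given above for each class apply to them too. In remodelling-like cells, with 1 of 31 higher and 2 lower, *Bambi*, a decoy receptor, went from 0.865 (1686 UMIs) to 1.43 (3256 UMIs), a fold of 1.65 (1.56 to 1.75), and *Atoh8*, a target of BMP signals, and *Smad9* stood at folds of 0.636 and 0.656. Reference cells had *Smad6*, an inhibitory SMAD, at a fold of 1.58 (1.42 to 1.75), from 468 and 1392 UMIs, *Chrdl1* at 1.72 and *Runx2* at 0.598. In de-differentiated-like cells *Atoh8* was the 1 pathway gene past 1.5-fold of 32 counted, from 723 to 589 UMIs, a fold of 0.663 (0.594 to 0.741). In plaques the contractile-like *Csrp2* cluster had *Smad5* at 0.608, *Chrdl1* at 1.73 and *Fst* at 1.76, and the *Rgs5* cluster had *Hes1* at 0.631, *Acvrl1* at 1.58 and *Chrdl1* at 1.82. Fibromyocyte-like cells had *Bmper*, a secreted BMP modulator, at 1.77 (1.28 to 2.44) and *Runx2* at 1.64 (1.30 to 2.07), with 0 of 30 counted lower. In chondrocyte-like cells *Runx2* stood at 0.552 (0.439 to 0.689), the 1 gene lower of 27, while *Fst* at 1.73, *Rgma* at 1.95 and *Msx1* at 1.97 were higher. Acute-phase-like cells had 0 of 33 higher and 6 lower, which were *Bmp3* at 0.596, *Smad9* at 0.484, *Chrdl1* at 0.536, *Sost* at 0.623, *Msx1* at 0.591 and *Runx2* at 0.654. The *Ifrd1* *Dmd* cluster had 4 of 20 higher and 0 lower, *Acvr1* at 1.58, *Eng* at 1.65, *Fst* at 2.64 and *Htra3* at 1.57, beside 4 of 16 digestion-induced genes higher.

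Within classes, cells with more *Id1* also had more *Id3*. Over thinned cells, Spearman's rho of *Id1* and *Id3* was 0.356 to 0.510 in 7 class and library pairs of the ligated arteries with 106 to 2270 cells, and 0.150 to 0.339 in 9 of the plaques with 107 to 212 cells. Spearman's rho of *Id1* with the summed digestion-induced genes was as high, at 0.437 to 0.567 after ligation and 0.0585 to 0.418 in plaques. These are descriptions across cells that share a library and a depth, and cells are not replicates. Among 5379 genes in 1511 control and 2270 *Trf2T188A* reference cells, the 5 most like *Id1* were *Junb* (mean rho of both libraries, 0.485), *Atf3* (0.451), *Ifrd1* (0.445), *Id3* (0.435) and *Gadd45b* (0.432). In 564 and 242 contractile-like plaque cells and 6952 genes they were *Ier2* (0.291), *Id3* (0.282), *Atf3* (0.279), *Junb* (0.272) and *Fos* (0.268). For *Gdf10* the 5 were *Sparc* (0.290), *Col1a1* (0.248), *Col1a2* (0.238), *Fbln5* (0.232) and *Phex* (0.213) in ligated reference cells, and no gene exceeded 0.159 in contractile-like plaque cells, where *Gdf10* was sparse. Spearman's rho of *Bmp2* and of *Bmp4* with *Gdf10* was at most 0.258 in any class, in sparse counts.

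**Figure D4:**
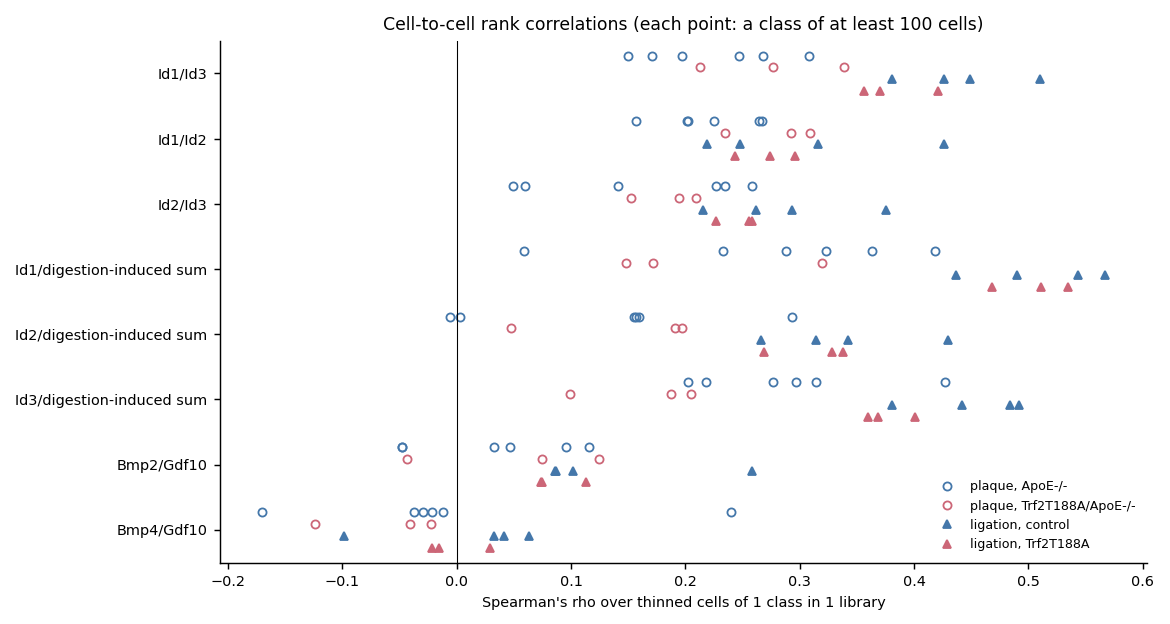
Spearman's rho across thinned cells of 1 class and 1 library for pairs of BMP pathway genes and for the *Id* genes with the summed digestion-induced genes, with 1 point per class and library of at least 100 cells and plaque and ligation marked apart. *Id1* with *Id3* lay at 0.356 to 0.510 after ligation and 0.150 to 0.339 in plaques.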

How the data were processed

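Chromium single-cell 3' libraries were analysed from the files the authors deposited. Per the submitters' processing notes, reads had been aligned by the authors with Cell Ranger 6.1.2 (ligation) or 7.0.0 (plaques) on GRCm38, and cells handled in Seurat 3.2.1 with R 3.6.2 (ligation) or 4.3.0 with R 4.2.2 (plaques). The methods instead give Seurat 4.3.0 for both, with R 4.2.2 for ligation and 3.6.2 for plaques. The authors removed low-quality cells, normalised the rest and, for plaques, kept clusters that express Confetti, leaving 1502 *ApoE-/-* and 929 *Trf2T188A/ApoE-/-* cells. The deposited signal was the UMIs of a gene per 10000 UMIs of its cell, on a linear scale. Nearly all values were whole multiples of the value of 1 UMI, within 0.01, so UMI counts were recovered.

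Cells were clustered in Seurat 5.3.0 (R 4.3.3, Matrix 1.6.5) with the study's 2000 variable genes, 18 principal components and resolution 0.9 (plaques) or 17 and 0.2 (ligation), without integration and without 55 BMP pathway genes, the 10 members and 45 others. A cluster took the name of its best marker list where the markers averaged 0.5 or more as a log2 ratio and 3 or more of them reached 0.5, unless another list had more markers among the 10 leading genes, limits set after the data were seen. No ligation cluster was contractile-like by these limits, so the unnamed *Sparcl1* *Tcap* cluster served as its reference, a change from the planned design. Of the plaque clusters, 1 is not reported here.

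Folds were ratios of summed UMIs, *Trf2T188A* over control or class over reference, for genes with at least 50 UMIs over both groups. Genotypes were compared in classes with at least 50 cells in both libraries, and classes with at least 20 cells were set against the reference. A fold past 1.5 was counted. Intervals are exact at 95% (Poisson for levels, conditional binomial for folds, Clopper-Pearson for shares) and cover counting error only, and where a class held 0 UMIs the level of 3 UMIs is given. For shares and correlations cells were thinned to 8000 UMIs in plaques (92 *ApoE-/-* and 122 *Trf2T188A/ApoE-/-* cells left out) and 5000 after ligation (325 control and 154 *Trf2T188A* cells left out). Scrublet in scanpy 1.11.5 called at most 0.323% of a library doublets, too few for a working threshold, so no cell was removed in the reported values. Counting and plotting ran in Python 3.11.15 (pandas 2.3.3, numpy 2.4.6, matplotlib 3.10.9, scipy 1.17.1), and the fold measure was tested on simulated data. The simulated counts held counting error only, so that test does not cover differences between cells or libraries.

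The members, lists and tests were chosen with earlier results of these data known. All 10 members were named, and other pathway genes where past 1.5-fold between genotypes in contractile-like, reference, remodelling-like or de-differentiated classes. Pathway genes named between classes, and those named in remodelling-like, reference, chondrocyte-like, acute-phase-like and *Ifrd1* *Dmd* cells, were chosen after their values were seen.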

Additional observations from a re-analysis of the deposited data

Results flagged for a closer look

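For 6 members, genotype folds lay on opposite sides of 1 in 2 classes of the same experiment, with counting intervals that left out 1 in both and a ratio of the folds above 1.5. The share of all genes that meet this rule was not computed, so the count is not read as particular to the set. With 1 library per genotype, none of these differences between classes was tested.

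*Id1* after ligation had the widest gap, with a fold of 1.53 in endothelial-like and 0.716 in remodelling-like cells, a ratio of 2.13. *Bmpr1b* in plaques was 1.38 times as high in acute-phase-like *Trf2T188A/ApoE-/-* cells and 0.669 times in the contractile-like *Rgs5* cluster, a ratio of 2.05. *Gdf10* after ligation stood at 1.59 in interferon-like and 0.873 in reference cells, a ratio of 1.82. *Bmp4* after ligation stood at 1.40 in de-differentiated-like and 0.869 in endothelial-like cells, a ratio of 1.61. *Bmpr2* in plaques stood at 1.18 in the contractile-like *Csrp2* and 0.784 in the contractile-like *Sparcl1* cluster, a ratio of 1.51. *Id3* after ligation stood at 1.30 in interferon-like and 0.854 in de-differentiated-like cells, a ratio of 1.52.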

How the results depend on the processing

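No paired analysis was possible because each genotype had 1 library in each experiment and no test was made. With the mean of per-cell values and a pseudocount of 1, the counts past 1.5-fold between genotypes were 1 higher and 0 lower in plaques and 1 higher after ligation, in place of 4, 2 and 3. Between classes they were 8 higher and 6 lower in plaques and 4 and 2 after ligation, in place of 14, 11, 8 and 5. At 0.5 times the resolution 1 was lower between genotypes in plaques, and 9 were higher and 7 lower between plaque classes and 2 and 8 between ligation classes. With BMP genes among the variable genes 2 were higher between genotypes in plaques, and likewise 2 at 1.5 times the resolution. A minimum of 20 UMIs gave 5 higher after ligation. Without cells under 2000 genes 1 member was lower after ligation, in place of 0. In cells not thinned, rho of *Id1* and *Id3* in reference cells was 0.494 for *Trf2T188A* and 0.502 for control, in place of 0.421 and 0.449.

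Of 824 recomputed values of 106 genotype folds of members, 729 stayed inside the counting interval of the reported fold, 94 left it, and 1 reversed. *Gdf10* in the contractile-like *Sparcl1* cluster, from 61 and 35 UMIs, had a log2 fold of −0.17 in thinned cells. Leaving out the cell richest in a gene was added after the data were seen. *Bmp6* in ligated VSMC classes had at most 8 UMIs a library, too few for a fold.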

Other observations

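The 14 cells of the unnamed *Igfbp3* *Gpx3* cluster, all from the *ApoE-/-* library, were left out of the comparisons of genotypes. Beside *Gdf10* at 6.76 and *Bmp2* at 3.09, their *Bmp4* level was 0.773 (95% interval, 0.472 to 1.19) from 20 UMIs and their *Id3* level 16.2 (14.6 to 17.8), while *Id1* stood at 0.464 (0.240 to 0.810) from 12 UMIs. *Acta2* was at 3.63 and *Myh11* at 2.55 in these cells, with 95.5% of the *Myh11* UMIs in 1 cell. The 21 fibroblast-like cells of the same library had *Id1* at 0.0711 from 2 UMIs and *Id3* at 6.57.

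The *Adamtsl1*-type-like plaque class, with 39 *ApoE-/-* and 36 *Trf2T188A/ApoE-/-* cells, was too small for the comparison of genotypes. Its *Id1* level was 3.01 from 238 UMIs in *ApoE-/-* and 1.38 from 147 UMIs in *Trf2T188A/ApoE-/-* cells, a ratio of 0.459 (0.371 to 0.566), and its *Id2* level 4.01 and 2.52, a ratio of 0.628 (0.532 to 0.741). *Id3* stood at a ratio of 1.16 there. The share of all genes past 1.5-fold was not computed for this class, so these ratios are not read as particular to the *Id* genes. Of the digestion-induced genes *Atf3*, *Ier3* and *Nr4a1* had ratios of 0.479, 0.643 and 0.468 in the same cells and none was past 1.5-fold higher, and their part in the *Id* values was not tested. The *Pln*-type-like class, with 50 and 22 cells, was also too small. Its ratios were 0.59 (0.329 to 1.01) for *Bmp2* and 0.406 (0.192 to 0.782) for *Gdf10*. No other member with at least 50 UMIs passed 1.5-fold in that class, and the share of all genes was not computed.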
